A study of Homo sapiens with 48 samples.

Results

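The late response of MEL202 cells to FHT-1015 was measured by RNA sequencing in 3 samples treated with the compound for 24 h and 3 samples treated with DMSO for 24 h, 6 of the 48 samples sequenced. The samples were taken by the line, agent and time in their labels, and the comparison ran over 15913 genes with enough reads to test. MEL202 is a human uveal melanoma cell line whose genotype is labelled WT, as is that of every line used here. FHT-1015 is labelled as an inhibitor of both SMARCA4 and SMARCA2, and the DMSO samples are labelled as the negative control. The doses are not given in the sources used here. The same line with FHT-1015 or DMSO for 4 h, and the lines 92-1 and MP41 with the same agents at both times, all with 3 samples per group, were used to set the 24 h response of MEL202 against an earlier time and other lines. The response described is that of 1 line to 1 compound. The replicates are labelled biological, without a statement that they came from separate cultures, so p-values measure the spread between these samples.

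SMARCA4 and SMARCA2 are the alternative ATPases of the BAF (SWI/SNF) complexes, which use ATP to slide and evict nucleosomes and so keep enhancers and promoters accessible to transcription factors. Uveal melanoma arises from melanocytes of the eye. In melanocytes the transcription factor SOX10 keeps up the expression of MITF, and MITF in turn drives the genes that make pigment and its organelle, the melanosome, and takes part in the control of proliferation. Most uveal melanomas carry an activated Gq-family G protein, which signals through phospholipase C beta, protein kinase C and the MAPK pathway.

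The 6 samples had between 17050240 and 32317711 reads in genes and between 22087 and 23984 genes with a read. Mitochondrial genes took between 3.32% and 5.74% of the reads in DMSO and between 5.36% and 7.77% in FHT-1015, and the part of this difference in the results was not tested. Values per sample are CPM, read counts scaled to a common library size with TMM, which are not corrected for gene length and are compared within a gene only. Replicate 2 of FHT-1015 at 4 h stood apart from the other MEL202 samples, with 17592 genes with a read and a score of 110.5 on the second principal component. It is not among the 6 samples compared at 24 h, but it enters the estimate of the spread. The summed level of 7 melanocytic markers (PMEL, MLANA, TYR, TYRP1, DCT, SOX10 and MITF) was between 7913 and 9806 CPM in DMSO and between 2857 and 3267 CPM in FHT-1015, a clear melanocytic signal in all 6 samples. The summed level of 5 immune markers was at most 3.29 CPM and that of 5 endothelial markers at most 0.468 CPM in every one of the 6 samples, with CD3E and CDH5 at 0 in all of them. Fibroblast markers summed to at most 4.37 CPM. Epithelial markers summed to at most 3.27 CPM in DMSO and to between 4.14 and 7.21 CPM in FHT-1015, where replicate 3 had KRT5 at 2.82 CPM and KRT14 at 0.907 CPM. Of the retinal pigment epithelium markers, RPE65 was 0 in all 6 samples, and the summed level of the 5, most of it TTR, was between 29.9 and 57.3 CPM in DMSO and between 10.1 and 15.8 CPM in FHT-1015. Of the tested markers of other cell types, 2 of 3 immune genes and 1 of 2 pigment epithelium genes (TTR) were called lower, the other pigment epithelium gene, LRAT, was called higher, and 0 of 7 fibroblast and epithelial genes were called by edgeR or DESeq2. At an unadjusted p under 0.05 in edgeR 1 epithelial gene was higher, and limma-voom called 1 fibroblast and 2 epithelial genes higher. The immune calls fell to 1 when DMSO replicate 1, 2 or 3 or FHT-1015 replicate 2 at 24 h was left out and to 0 without FHT-1015 replicate 1 or 3, and the call of TTR ended without DMSO replicate 3 or FHT-1015 replicate 1 or 2. Without FHT-1015 replicate 1 at 24 h 1 epithelial gene, and without FHT-1015 replicate 2 at 4 h 1 fibroblast gene, was called higher. The part of these cells' RNA in the results was not tested.

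The first principal component of the 12 MEL202 samples held 39.3% of the variance and set the FHT-1015 samples at 24 h, with scores from 84.2 to 86.5, apart from the other 9 MEL202 samples, none of which was above -11.9. Of the FHT-1015 samples at 4 h, replicates 1 and 3 lay among the DMSO samples on that component, and replicate 2, at -60.8, lay below all of them.

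**Figure D1:**
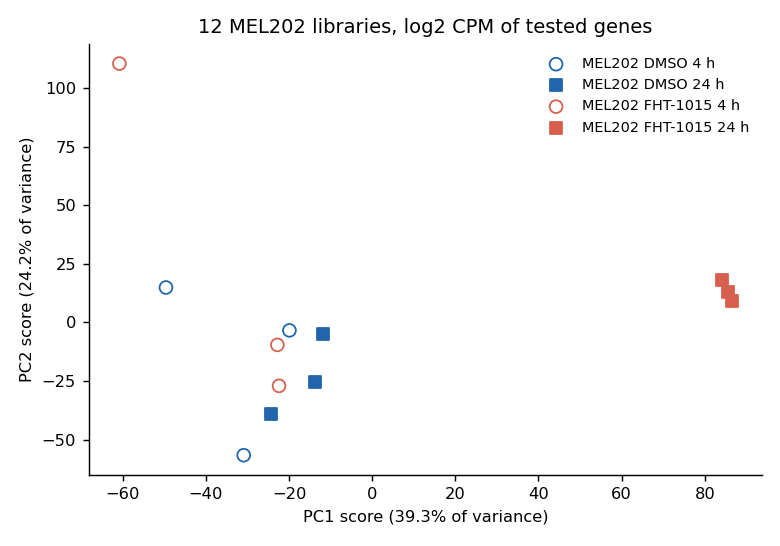
Scores of the 12 MEL202 libraries on the first (x) and second (y) principal components of log2 CPM over the tested genes, with the percent of variance on each axis label; open circles are 4 h, filled squares 24 h, blue is DMSO and red FHT-1015. The 3 FHT-1015 libraries at 24 h lie together at scores from 84.2 to 86.5 on the first component, and 1 FHT-1015 library at 4 h lies at 110.5 on the second.

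Pigment-cell genes carry much of what follows, and the DNA before the start of 4 of them is shown because it holds the letters that MITF is known to bind. These letters are CACGTG and CATGTG, searched on both strands, which for the second also gives CACATG. The windows are the 250 bases before the RefSeq start of the gene, read 5′ to 3′ on the gene's strand and taken from RefSeq promoters of GRCh38.p14, with the matched letters in capitals. They are chr15:31161161-31161410 (minus strand) for the ion channel gene TRPM1, chr2:237487001-237487250 (plus strand) for the melanosome carrier MLPH, chr11:89177625-89177874 (plus strand) for tyrosinase, TYR, and chrX:9765848-9766097 (minus strand) for the melanosome receptor GPR143.
TRPM1: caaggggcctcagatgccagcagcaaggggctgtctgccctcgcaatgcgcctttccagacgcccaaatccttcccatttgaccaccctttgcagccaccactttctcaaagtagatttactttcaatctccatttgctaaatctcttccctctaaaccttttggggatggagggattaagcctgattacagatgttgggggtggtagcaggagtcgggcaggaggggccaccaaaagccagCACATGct
MLPH: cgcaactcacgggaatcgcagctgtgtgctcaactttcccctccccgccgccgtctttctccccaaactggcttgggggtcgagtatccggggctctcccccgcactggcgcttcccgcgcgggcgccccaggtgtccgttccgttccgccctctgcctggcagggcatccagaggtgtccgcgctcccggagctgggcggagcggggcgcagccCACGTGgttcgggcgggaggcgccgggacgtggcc
TYR: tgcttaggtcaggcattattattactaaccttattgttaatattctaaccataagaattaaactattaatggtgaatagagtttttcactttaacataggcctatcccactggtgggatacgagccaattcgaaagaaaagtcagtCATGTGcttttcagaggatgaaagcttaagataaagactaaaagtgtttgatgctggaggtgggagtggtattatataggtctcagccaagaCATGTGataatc
GPR143: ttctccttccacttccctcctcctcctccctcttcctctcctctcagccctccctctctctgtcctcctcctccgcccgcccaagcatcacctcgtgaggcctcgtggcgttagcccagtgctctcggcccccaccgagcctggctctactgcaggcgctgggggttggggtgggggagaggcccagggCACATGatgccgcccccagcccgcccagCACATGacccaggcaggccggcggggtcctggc
In TRPM1 the letters CACATG began 8 bases before the start (position -8), and in MLPH the letters CACGTG began at -35. TYR had CATGTG at -104 and -12, and GPR143 had CACATG at -61 and -33. At least 1 match was found in 8 of 16 windows of melanosome genes called lower at 24 h (50%) and in 8 of 17 windows of members of the same lists that were not called (47.1%). Over all tested genes with a window, 1499 of 10715 (14%) held a match, against 221 of 1160 genes called lower (19.1%) and 129 of 1007 genes called higher (12.8%). Of all RefSeq windows, 15.5% held one. Taken apart, CATGTG was found in 7 of the 16 windows of melanosome genes called lower (43.8%) and in 4 of the 17 of those not called (23.5%), and CACGTG in 2 of 16 (12.5%) and 5 of 17 (29.4%). Over all tested genes CATGTG was in 5.54% and CACGTG in 9.01% of windows. A match is a string of letters and not a measured binding site, and these shares were not tested.

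After 24 h of FHT-1015, 1383 of the 15913 genes tested (8.69%) were higher than in DMSO and 1601 (10.1%) were lower, 18.8% in either direction, at an adjusted p under 0.05 in edgeR's quasi-likelihood test with Benjamini-Hochberg adjustment. The changes of the called genes were large, but a call itself selects larger changes. The smallest absolute log2 fold change called was 0.51, beside a median SE of 0.31 over the tested genes. The median absolute log2 fold change of the called genes was 1.25, and 294 higher and 319 lower genes were past a log2 fold change of 2. The FHT-1015 and DMSO replicates did not overlap for 2982 of the 2984 called genes, while over all tested genes they did not overlap for 8275 (52.0%). Over the whole set of tested genes the log2 fold change had a median of -0.006. The counts differed with the samples fitted and with the tool, and the causes were not tested. Leaving out DMSO replicate 1 or 3, or any FHT-1015 replicate, at 24 h gave between 788 and 890 higher genes. Leaving out DMSO replicate 3 or any FHT-1015 replicate at 24 h gave between 971 and 1067 lower genes. By limma-voom with quality weights, 4484 were called higher and 4340 lower, and from the 6 samples at 24 h alone 3123 and 3133. Counts of list members called at 24 h are to be read against the shares of all genes, 8.69% higher and 10.1% lower. The list members named below as having risen or fallen were called in each of the 12 fits that left out 1 MEL202 sample, unless it is said otherwise; the counts of a list also hold members whose calls ended in some of those fits. RNA of bulk samples cannot tell fewer cells of a type from less RNA per cell.

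The RNAs of the 2 inhibited proteins were not among the called genes. SMARCA4 was at 341, 444 and 357 CPM in DMSO and at 483, 459 and 439 CPM in FHT-1015, so the groups overlapped (log2 fold change 0.27 ± 0.30 SE, adjusted p = 0.591 in edgeR). SMARCA2 was at 56.4, 78.4 and 71.6 CPM in DMSO and at 66.2, 66.7 and 60.3 CPM in FHT-1015 (log2 fold change -0.10 ± 0.20 SE, adjusted p = 0.8 in edgeR). An inhibitor of a protein need not change its RNA, so these levels do not check the treatment labels. Of the 27 tested BAF subunit genes, 1 rose and 2 fell, with a list median of 0.04. BICRAL, a subunit of the non-canonical complex, rose from 24.5, 38.4 and 32.2 CPM to 79.4, 76.8 and 82.4 CPM (log2 1.33). SS18L1 fell (log2 -1.13). The call of BCL7A (log2 -0.72) ended when any 1 of the 6 samples at 24 h was left out, and 2 members were called higher without DMSO replicate 1 or 2 or FHT-1015 replicate 2 at 4 h, or DMSO replicate 2 at 24 h. A fit of the 6 samples at 24 h alone called 8 of the BAF genes higher.

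Of the 23 tested regulators of the melanocyte lineage, 8 fell and 4 rose, with a median of -0.55 on the log2 scale, against 10.1% lower and 8.69% higher over all genes. SOX10 (chromosome 22, 37970686 to 37987422, minus strand, GRCh38) was at 633, 602 and 608 CPM in DMSO and at 13.8, 13.4 and 15.3 CPM in FHT-1015. All 3 treated samples were far below all 3 controls, and the fall was 43.2-fold (log2 -5.43 ± 0.28 SE, adjusted p = 9.17e-08 in edgeR). MITF (chromosome 3, 69739435 to 69968337, plus strand, GRCh38) was at 318, 446 and 404 CPM in DMSO and at 100, 94.4 and 116 CPM in FHT-1015. Its groups did not overlap either, with a smaller fall of 3.76-fold (log2 -1.91 ± 0.23 SE, adjusted p = 0.000106 in edgeR). IRF4, a MITF partner in pigment gene control, fell from 5.54, 4.73 and 4.03 CPM to 0.194, 0.406 and 0.334 CPM (log2 -3.90). TFAP2C, an AP-2 transcription factor, fell from 42.1, 43.3 and 41.6 CPM to 5.97, 6.37 and 7.59 CPM (log2 -2.67). ERBB3, the neuregulin receptor that SOX10 is known to maintain, was between 48.6 and 71.2 CPM in DMSO and between 8.4 and 10.2 CPM in FHT-1015 (log2 -2.66). FOXD3, a neural crest factor, also fell (log2 -1.58).

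Other lineage factors were not called or rose. PAX3, which acts with SOX10 upstream of MITF, was at 171, 190 and 194 CPM in DMSO and at 152, 151 and 151 CPM in FHT-1015 (log2 -0.29, adjusted p = 0.254 in edgeR); its treated samples were all below its controls, but it was not called. TFAP2A was at 362, 331 and 316 CPM and at 438, 394 and 361 CPM (log2 0.24, adjusted p = 0.41 in edgeR), with groups that overlapped. SOX4, a SOX factor of progenitor cells, rose from 534, 714 and 646 CPM to 1683, 1812 and 1674 CPM (log2 1.45). The calls of SOX9 (log2 0.91), KIT (log2 3.39, from at most 0.184 CPM in DMSO) and LEF1 (log2 0.79) among the higher genes, and of EDNRB (log2 -0.98) and SNAI2 (log2 -0.95) among the lower ones, each ended in between 3 and 8 of the 12 fits that left out 1 sample. The number of lineage regulators called higher was 1 without replicate 2 or 3 of either 24 h group and 2 without replicate 1 of DMSO at 24 h. By limma-voom with quality weights, 13 of the list were called lower and 8 higher.

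**Figure D2:**
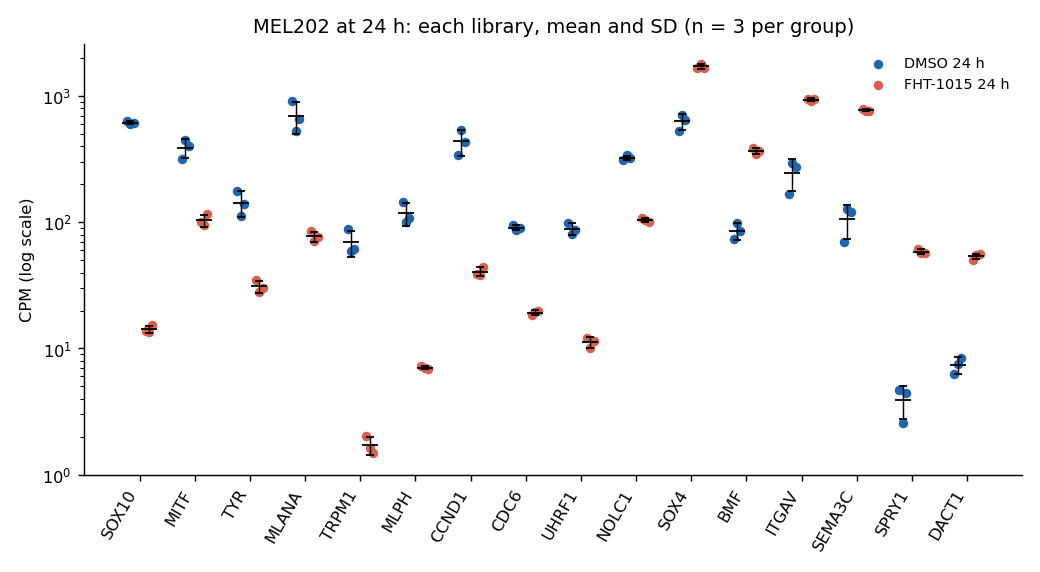
CPM (y, log scale) of 16 genes (x) in the 3 DMSO libraries at 24 h (blue) and the 3 FHT-1015 libraries at 24 h (red) of MEL202; points are libraries, the long bar is the mean and the error bar the SD (n = 3). The 2 groups are separate for each gene drawn, with SOX10 near 600 CPM in DMSO and near 14 CPM in FHT-1015 and SPRY1 rising from under 5 CPM to above 56 CPM.

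Melanin synthesis and melanosome protein genes fell together: 12 of 18 tested members were called lower and 0 higher, with a median of -1.53 on the log2 scale. In edgeR 0 were higher even at an unadjusted p under 0.05, and DESeq2 and limma-voom also called 0 higher. Among them were the enzymes TYR and TYRP1, the fibril protein PMEL, the melanoma antigen MLANA and the pigment transporter SLC45A2. TRPM1 (chromosome 15, 31001061 to 31161273, minus strand, GRCh38), an ion channel whose gene also hosts the miRNA miR-211, was at 88.2, 59 and 60.9 CPM in DMSO and at 2.04, 1.62 and 1.48 CPM in FHT-1015 (log2 -5.33 ± 0.28 SE, adjusted p = 9.17e-08 in edgeR). This was the largest fall of the list. MLANA fell from 908, 525 and 658 CPM to 84.7, 70.9 and 76.3 CPM (log2 -3.17), and replicate 1 of DMSO was the highest of its group here. SLC45A2 fell from 240, 213 and 220 CPM to 32.1, 21.7 and 28.2 CPM (log2 -3.04). TYR, which catalyses the first step of melanin synthesis, was at 178, 112 and 139 CPM in DMSO and at 34.8, 28.1 and 30.1 CPM in FHT-1015 (log2 -2.21 ± 0.23 SE, adjusted p = 2.65e-05 in edgeR). TYRP1 went from 3872, 3410 and 4137 CPM to 1356, 1244 and 1360 CPM (log2 -1.53) and PMEL from 3896, 2816 and 3523 CPM to 1677, 1406 and 1410 CPM (log2 -1.19). GPR143 (log2 -2.09), BACE2 (log2 -1.52) and CD63 (log2 -1.48) also fell. SLC24A5 (log2 -1.97, and -1.51 from the sum of the stranded columns) and CAPN3 (log2 -2.94) were called lower, but 32.9% and 57.1% of their exon bases overlap another gene, so their reads are less certain. The call of DCT, at most 1.36 CPM in any sample, ended in 5 of the 12 fits that left out 1 sample. Leaving out 1 sample left 11 or 12 members called lower.

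Genes that carry and build melanosomes fell in smaller number, 8 of 23 with 0 higher in edgeR and DESeq2, 1 higher in limma-voom and at an unadjusted p under 0.05 in edgeR, and a median of -0.29. MLPH (chromosome 2, 237485428 to 237555318, plus strand, GRCh38), melanophilin, which links RAB27A on the melanosome to myosin Va, was at 145, 99.7 and 109 CPM in DMSO and at 7.28, 7.02 and 6.83 CPM in FHT-1015 (log2 -4.06 ± 0.22 SE, adjusted p = 1.14e-07 in edgeR). The treated samples differed among themselves by less than 1 CPM and were far under the controls. RAB27A itself fell from 37.5, 37.7 and 37.2 CPM to 12.9, 12.5 and 11.8 CPM (log2 -1.59). RAB38, a RAB GTPase that sorts pigment enzymes, fell from 176, 174 and 211 CPM to 61.9, 69.9 and 68.1 CPM (log2 -1.49). LYST (log2 -1.39) and HPS4 (log2 -1.08), genes of inherited pigment disorders, fell as well. The calls of OSTM1, MREG and RAB32 each ended in 5 or 6 of the fits that left out 1 sample, and 5 members were called lower without replicate 1 or 3 of DMSO or without any FHT-1015 replicate at 24 h.

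Beyond the lists, the 15 lower and 15 higher protein-coding genes with the largest changes, at a mean of at least 5 CPM and with separate replicates, mixed pigment-cell genes with others. SLAMF7, a receptor of the SLAM family best known from immune cells, fell from 13, 14.7 and 17.7 CPM to 0.0971, 0 and 0.287 CPM (log2 -6.88 ± 0.53 SE, adjusted p = 2.88e-06 in edgeR). That value rests on 8 reads in the 3 treated samples against 1159 in the controls. TSPAN10, a tetraspanin expressed in pigment cells, fell from 100, 79.6 and 98.3 CPM to 2.48, 2.36 and 2.24 CPM (log2 -5.30). TRIM63, a ubiquitin ligase and known MITF-family target, fell from 41.6, 24.4 and 29.7 CPM to 0.582, 0.771 and 1.43 CPM (log2 -5.10). PHACTR1, a regulator of actin and protein phosphatase 1, fell from 91.3, 112 and 89.4 CPM to 5.05, 4.3 and 3.82 CPM (log2 -4.47). These 4 genes had every treated sample under every control by a wide margin. BIRC7, a melanoma inhibitor of apoptosis protein, fell by 4.34 on the log2 scale, and the muscle-associated genes ASB2 and MLIP fell by 4.31 and 4.28. The chloride channel gene BEST1 was at 19.1, 16.1 and 17.8 CPM and then at 0.291, 0.122 and 0.287 CPM (log2 -6.23), but 14.2% of its exon bases overlap FTH1. From the sum of the stranded columns its log2 fold change was 0.15 with an adjusted p of 0.741 in edgeR, so its fall depends on the count column.

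Among the 15 genes with the largest rises, several started from low levels. IGFBP5, a secreted binder of insulin-like growth factors, rose from 0.273, 1.05 and 0.584 CPM to 10.9, 14.8 and 15.9 CPM (log2 4.49 ± 0.48 SE, adjusted p = 3.52e-05 in edgeR). It was at most 1.05 CPM in DMSO and at least 10.9 CPM in each treated sample. FREM2, an extracellular matrix protein of basement membranes, rose from 10.1, 25.6 and 15.5 CPM to 215, 182 and 202 CPM (log2 3.55 ± 0.45 SE, adjusted p = 0.000135 in edgeR). SLIT2, a guidance ligand for ROBO receptors, rose from 5.73, 18.6 and 15.2 CPM to 95.5, 112 and 123 CPM (log2 3.07). In both genes replicate 1 of DMSO was the lowest of the 6 samples. MFSD6 (log2 3.01), the splicing regulator NOVA2 (log2 3.20) and the synaptic vesicle protein SYP (log2 2.98) were in the same group. The histone gene HIST1H2BC rose by 3.38 on the log2 scale; histone genes are nearly identical copies, and reads shared between copies make its level uncertain.

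Genes of DNA replication and S phase fell almost as a whole. Of 40 tested members, 35 were called lower and 0 higher, all 40 had a negative log2 fold change, and the median was -1.37, against 10.1% of all genes called lower. The number higher was also 0 at an unadjusted p under 0.05 in edgeR, and in DESeq2 and limma-voom. UHRF1, which brings DNA methylation to newly copied DNA, fell from 99.1, 80.7 and 86.8 CPM to 12.2, 10 and 11.5 CPM (log2 -2.98 ± 0.22 SE, adjusted p = 1.51e-06 in edgeR). CDC6, which loads the replicative helicase, fell from 94.8, 87.2 and 90.7 CPM to 18.3, 19.4 and 20 CPM (log2 -2.24). E2F1, the transcription factor of the G1/S transition, fell from 51.2, 44.9 and 43.8 CPM to 9.8, 10.8 and 8.88 CPM (log2 -2.24). In these 3 genes every treated sample was far below the lowest control. The helicase subunit MCM4 (log2 -1.86), the helicase activator MCM10 (log2 -1.97), the origin gene ORC1 (log2 -1.92) and the sliding clamp PCNA (log2 -1.67) fell with them. CCNE2, cyclin E2, fell by 2.24 on the log2 scale and by 1.53 from the sum of the stranded columns, with 37% of its exon bases shared with INTS8. POLD1, POLE, PRIM1, RRM1 and CCNA2 were not called. Leaving out 1 sample gave between 27 and 37 members called lower.

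Genes of mitosis and G2/M did not move in the same way in this test. Of 35 tested members 1 was called lower and 0 higher, with a median of -0.19. At an unadjusted p under 0.05 in edgeR, 4 were lower and 0 higher, and DESeq2 called 1 lower and 0 higher. The 1 was AURKB, the kinase of the chromosomal passenger complex, at 82.5, 46 and 66.4 CPM in DMSO and at 30.2, 36.6 and 35.1 CPM in FHT-1015 (log2 -0.94, adjusted p = 0.033 in edgeR). Its call ended without replicate 1 or 3 of DMSO or any FHT-1015 replicate at 24 h, and over the 12 fits that left out 1 sample its log2 fold change ran from -1.14 to -0.73. Leaving out DMSO replicate 3 or FHT-1015 replicate 2 at 4 h gave 2 members called lower. MKI67, the proliferation antigen, was at 137, 363 and 184 CPM in DMSO and at 247, 170 and 186 CPM in FHT-1015 (log2 -0.18 ± 0.48 SE, adjusted p = 0.844 in edgeR), with groups that overlapped. The count of mitosis genes called lower was 10 in a fit of the 6 samples alone and 12 by limma-voom with quality weights, which also called 2 higher, and the medians there were -0.20 and -0.17. The difference between the replication and mitosis lists was not tested as such.

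CCND1, cyclin D1, which opens G1 and is a known output of MAPK signalling, fell from 339, 543 and 433 CPM to 39.2, 38.5 and 44.5 CPM (log2 -3.43 ± 0.35 SE, adjusted p = 2.46e-05 in edgeR). Among 13 D cyclins, CDKs and CDK inhibitors tested outside the MAPK list, 4 fell and 2 rose. CCND3 fell from 89.5, 73.4 and 84.1 CPM to 39.5, 43 and 35.3 CPM (log2 -1.07). The 2 that rose are inhibitors of CDK4 and CDK6. CDKN2B rose from 26, 33.7 and 40.5 CPM to 66.4, 87.9 and 76.4 CPM (log2 1.20) and CDKN2C from 45.7, 36.2 and 42.5 CPM to 77, 93.7 and 85.2 CPM (log2 1.04). CDKN1A, the p21 inhibitor, went the other way, from 273, 297 and 360 CPM to 172, 188 and 219 CPM (log2 -0.68), a call that ended in 5 of the 12 fits that left out 1 sample. CDK4 (log2 -0.91) has 43.2% of its exon bases shared with another gene. The number of lower calls in this list was 2 without replicate 2 or 3 of DMSO or without any FHT-1015 replicate at 24 h.

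Ribosome biogenesis genes fell in 22 of 30 tested members, with 0 higher and a median of -1.12. The number higher was 0 at an unadjusted p under 0.05 in edgeR and in DESeq2, and 1 in limma-voom. NOLC1, a nucleolar scaffold for RNA polymerase I and the modification machinery, fell from 314, 339 and 321 CPM to 108, 104 and 101 CPM (log2 -1.64 ± 0.18 SE, adjusted p = 4.85e-05 in edgeR). UTP15, a subunit of the complex that processes the small-subunit RNA, fell from 37, 33.7 and 34.8 CPM to 11.3, 8.16 and 10.2 CPM (log2 -1.83), and RRP9, a protein of the U3 particle, by 1.74 on the log2 scale. Nucleolin, NCL, one of the most highly counted members, fell less, from 1415, 1375 and 1193 CPM to 795, 728 and 724 CPM (log2 -0.83). NOP16 was lower by 1.90 on the log2 scale from the unstranded column and by 0.77 from the stranded sum, where it was not called. Leaving out 1 sample gave between 17 and 22 members called lower. MYC, which is known to drive these genes and was chosen here after its values were seen, was at 298, 232 and 296 CPM in DMSO and at 73, 84.9 and 85.8 CPM in FHT-1015 (log2 -1.76 ± 0.20 SE, adjusted p = 4.73e-05 in edgeR).

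Of 22 tested genes of the ATF4 and unfolded protein responses, 9 fell and 2 rose, with a median of -0.66, against 10.1% lower and 8.69% higher over all genes, so that the number that rose was near the share of all genes. SLC7A5, the large neutral amino acid transporter, fell from 551, 566 and 494 CPM to 147, 124 and 130 CPM (log2 -2.00). TRIB3, a pseudokinase induced by ATF4, fell from 40.2, 32.1 and 39.2 CPM to 10.4, 10.5 and 13.9 CPM (log2 -1.68). PSAT1 of serine synthesis and the unfolded protein factor XBP1 both fell by 1.55 on the log2 scale, and the chaperone HSPA5 by 0.94. The 2 that were called higher, DDIT4 (log2 1.09) and VLDLR (log2 0.81), were not called in 4 and 6 of the 12 fits that left out 1 sample. Neither was called without DMSO replicate 1 or 2 or FHT-1015 replicate 2 or 3 at 24 h, and 1 was called without DMSO replicate 3 or FHT-1015 replicate 1. Members of this list thus fell more often than rose in this comparison, and limma-voom with quality weights called 16 lower.

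Genes read as output of MAPK signalling moved in both directions: of 20 tested, 5 fell and 3 rose, with a median of 0.13. Beside CCND1, the phosphatase DUSP4 fell from 251, 343 and 310 CPM to 62.1, 62 and 68.1 CPM (log2 -2.23), and PHLDA1 from 233, 214 and 209 CPM to 44.5, 39.5 and 42.3 CPM (log2 -2.38). EPHA2, a receptor tyrosine kinase, fell by 2.34 and EGR3 by 1.62 on the log2 scale. SPRY1 (chromosome 4, 123396795 to 123403760, plus strand, GRCh38), a feedback inhibitor of receptor tyrosine kinase signalling, rose from 4.68, 2.57 and 4.43 CPM to 61.4, 56.9 and 56.7 CPM (log2 3.89 ± 0.31 SE, adjusted p = 3.79e-06 in edgeR). ETV1, a MAPK-stabilised ETS factor, rose from 53.7, 70.1 and 72 CPM to 212, 200 and 224 CPM (log2 1.70), and the inhibitor SPRED3 rose by 1.91 on the log2 scale. The phosphatase DUSP6, a common readout of ERK activity, was at 115, 75.1 and 99.8 CPM in DMSO and at 127, 119 and 135 CPM in FHT-1015 (log2 0.40, adjusted p = 0.351 in edgeR). Feedback inhibitors of the pathway were thus found among the higher, the lower and the uncalled genes.

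Upstream in the Gq and protein kinase C pathway, 5 of 22 tested genes fell and 1 rose, with a median of 0.19. GNAQ was at 76.9, 111 and 89 CPM in DMSO and at 134, 126 and 127 CPM in FHT-1015 (log2 0.48, adjusted p = 0.283 in edgeR), and GNA11 at 54.1, 61 and 67.5 CPM and at 54.6, 62 and 59.8 CPM (log2 -0.05, adjusted p = 0.916 in edgeR). RASGRP3, which passes protein kinase C signals to RAS in uveal melanoma, fell from 197, 197 and 179 CPM to 89.6, 87.3 and 93.4 CPM (log2 -1.09). The regulator of G protein signalling RGS20 (log2 -1.59) and the phospholipase PLCB2 (log2 -2.01) fell, and the kinase PRKCH rose (log2 1.32). The calls of PRKCD (log2 -0.88) and PRKCE (log2 -0.70) ended in 4 and 7 of the 12 fits that left out 1 sample, and 3 members were called lower without replicate 3 of DMSO or any FHT-1015 replicate. The number called higher was 2 without DMSO replicate 2 or FHT-1015 replicate 1 at 4 h, 3 without FHT-1015 replicate 2 at 4 h, and 7 in a fit of the 6 samples alone. Among 19 immediate early genes tested, 5 rose and 3 fell, with KLF4 (log2 1.67), NR4A2 (log2 1.43) and KLF6 (log2 0.86) higher and JUN (log2 -0.94) lower, and leaving out the 24 h FHT-1015 replicate 2 left 3 called higher. The number called lower was 1 without DMSO replicate 1 or FHT-1015 replicate 2 or 3 at 24 h.

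In the BCL2 family, 3 of 15 tested genes fell and 1 rose. HRK, a BH3-only protein that promotes cell death, fell from 22.6, 29.4 and 24.5 CPM to 0.922, 1.54 and 0.907 CPM (log2 -4.49 ± 0.31 SE, adjusted p = 1.4e-06 in edgeR). BMF, another BH3-only protein, rose from 73.4, 99.1 and 84.6 CPM to 387, 345 and 370 CPM (log2 2.10). BCL2, the survival protein, fell from 97.2, 164 and 123 CPM to 45.5, 41.9 and 48.7 CPM (log2 -1.50). The groups were separate in each of these 3 genes, and 2 members that promote death moved in opposite directions. The call of BAX (log2 -0.81) ended in 7 of the 12 fits that left out 1 sample. Of 19 p53 targets tested, 2 fell and 2 rose, near the shares of all genes called lower (10.1%) and higher (8.69%). The stress cytokine GDF15 (log2 -2.33) and the nuclease AEN (log2 -1.43) fell, and the repair gene DDB2 (log2 0.92) and the ferredoxin reductase FDXR (log2 0.87) rose. Leaving out FHT-1015 replicate 2 at 4 h gave 4 targets called lower.

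BMP and TGF-beta genes rose more often than the genes tested as a whole: 12 of 22 were called higher and 1 lower, with a median of 0.88 on the log2 scale. The ligand TGFB3 rose from 1.44, 1.87 and 2.3 CPM to 10.6, 12.8 and 14.4 CPM (log2 2.74), and the ligand BMP4 from 7.29, 4.67 and 6.95 CPM to 16.3, 22.2 and 21.4 CPM (log2 1.66). ID4, a transcriptional inhibitor known as a BMP target, rose from 240, 211 and 244 CPM to 509, 552 and 530 CPM (log2 1.19). The treated samples were above the controls in all 3 genes. BMP7 rose by 1.80 on the log2 scale, from at most 0.702 CPM. TGFB2 (log2 1.69) and the BMP antagonist NOG (log2 -2.19) each lost their call in 2 of the 12 fits that left out 1 sample, and the receptors BMPR1A (log2 0.93) and BMPR2 (log2 1.16) in 3 and 5. NOG was no longer called without FHT-1015 replicate 1 or 3 at 24 h, and 2 members were called lower without DMSO replicate 1 or 2 or FHT-1015 replicate 2 at 4 h. The number of members called higher was 6 without replicate 1 of DMSO and 7 without replicate 3 of DMSO or replicate 1 of FHT-1015 at 24 h.

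WNT pathway genes split, with 8 of 29 higher and 6 lower and a median of -0.04. SFRP1, a secreted WNT antagonist, fell from 576, 671 and 683 CPM to 70.9, 63.2 and 61.5 CPM (log2 -3.30 ± 0.23 SE, adjusted p = 1.34e-06 in edgeR). Other antagonists rose: DACT1 went from 6.24, 7.59 and 8.39 CPM to 50.5, 54.9 and 55.8 CPM (log2 2.86), and DKK1 from 9.94, 6.31 and 10.1 CPM to 49.7, 60 and 44.7 CPM (log2 2.54). CXXC4, which binds Dishevelled, rose by 3.27 on the log2 scale. The receptors FZD2 (log2 1.48), FZD7 (log2 1.31) and FZD1 (log2 1.26) were higher. CTNNB1, beta-catenin, fell from 781, 1382 and 1165 CPM to 521, 481 and 518 CPM (log2 -1.13), and the receptor-removing ligase ZNRF3 by 1.61. Leaving out the 24 h FHT-1015 replicate 1 left 3 called lower.

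Semaphorins, plexins and neuropilins, the ligands and receptors of axon and cell guidance, were called higher in 11 and lower in 6 of 30 tested members. SEMA3C, a secreted ligand, rose from 69.4, 127 and 121 CPM to 793, 761 and 769 CPM (log2 2.87 ± 0.32 SE, adjusted p = 4.73e-05 in edgeR). The membrane ligands SEMA6D (log2 2.58) and SEMA6C (log2 2.14) rose as well. Several receptors fell. PLXNC1, the receptor of SEMA7A in melanocytes, fell from 274, 447 and 387 CPM to 48.5, 43.5 and 50.2 CPM (log2 -2.96), and NRP2 fell from 21.8, 22.6 and 19.4 CPM to 1.99, 2.27 and 1.48 CPM (log2 -3.46). PLXNA4 (log2 -4.20) and PLXNA2 (log2 -2.23) fell, and SEMA3B (log2 -1.52) was a ligand that fell. NRP1 was called higher (log2 2.09, from at most 1.08 CPM), a call that ended in 6 of the 12 fits that left out 1 sample. Without replicate 1 of DMSO at 24 h, 7 members were called higher.

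Integrin and laminin genes rose in 7 of 25 and fell in 1. ITGAV, the alpha-V integrin, rose from 169, 297 and 276 CPM to 951, 908 and 952 CPM (log2 1.92), and ITGA1, a collagen receptor, from 42.9, 117 and 103 CPM to 435, 443 and 500 CPM (log2 2.39). In both genes replicate 1 of DMSO was the lowest sample. ITGA4 rose by 2.59 on the log2 scale, from at most 0.818 CPM, and LAMA4 fell by 1.96. Without any 1 of the 6 samples at 24 h, 4 members were called higher, and without FHT-1015 replicate 1 at 24 h 2 were called lower. Collagens were called in both directions, 4 of 23 higher and 8 lower, with COL3A1 higher from 3.67, 4.5 and 5.65 CPM to 38.1, 29.7 and 33.6 CPM (log2 2.87) and COL16A1 (log2 -2.82) and COL9A3 (log2 -1.26) lower. The number of collagens called lower was between 3 and 5 without any 1 of the samples at 24 h or replicate 3 of FHT-1015 at 4 h, and that of those called higher was 1 or 2 without replicate 1 or 3 of either 24 h group. Of 15 Eph receptors and ephrins, not counting EPHA2, which is in the MAPK list and fell, 5 were called higher and 0 lower (0 lower at an unadjusted p under 0.05 in edgeR and in DESeq2, 1 in limma-voom). EPHA3 rose from at most 0.818 CPM to between 5.35 and 7.18 CPM (log2 3.65), EPHA7 by 3.68 and EFNB2 by 1.62 on the log2 scale, and 3 were called without replicate 2 or 3 of DMSO or replicate 2 of FHT-1015.

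**Figure D3:**
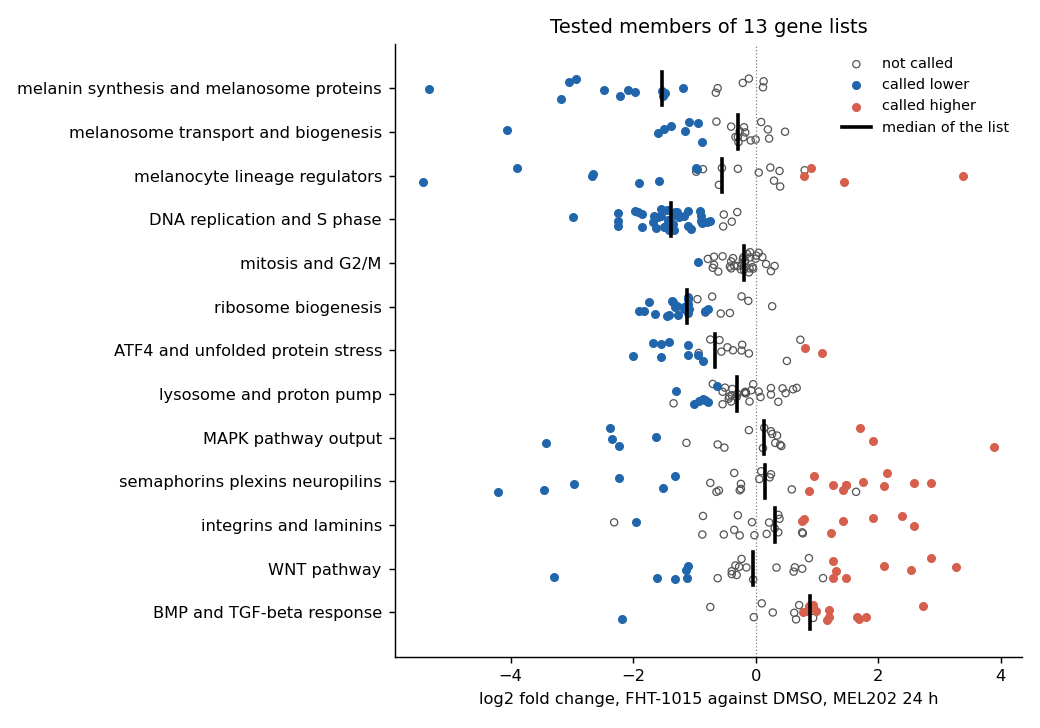
Log2 fold change of FHT-1015 against DMSO in MEL202 at 24 h (x) for each tested member of 13 gene lists (y); filled points were called lower (blue) or higher (red), open points were not called, and the black bar is the median of the list; points are spread vertically to show them. Melanin, DNA replication and ribosome biogenesis genes lie to the left with medians of -1.53, -1.37 and -1.12, mitosis genes near 0 with a median of -0.19, and BMP and TGF-beta genes to the right with a median of 0.88.

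Markers of other melanoma and neural states were called in both directions. Of 17 genes of the dedifferentiated melanoma state 2 rose and 3 fell: TGFBI fell by 2.00 and the growth factor NRG1 rose by 1.57 on the log2 scale. AXL, the receptor that marks that state, was at 0.078, 0.35 and 0.0922 CPM in DMSO and at 1.12, 2.27 and 1.48 CPM in FHT-1015 (log2 3.30), a call that ended without DMSO replicate 1 or 3 or FHT-1015 replicate 2 at 24 h, which left 1 member called higher. The call of CD44 (log2 -0.64) ended in 5. Of 15 neural and glial genes 3 rose and 5 fell, against 8.69% and 10.1% of all genes, and 1 was called higher without DMSO replicate 1 at 24 h. The glial gene S100B (log2 -2.24) and the progenitor filament NES (log2 -1.13) were among those that fell. Neither was the largest change of the list, whose tested members ran from -5.09 to 2.80 on the log2 scale.

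Other lists held scattered changes. In JAK-STAT signalling 4 of 18 genes fell and 3 rose, with the receptor IL6R (log2 -2.21), the feedback inhibitor CISH (log2 -2.82), the kinase PIM3 (log2 -2.09) and STAT5A (log2 -1.64) lower and SOCS2 (log2 1.39) higher. The number called higher was 1 without DMSO replicate 2 or 3 or FHT-1015 replicate 2 or 3 at 24 h, and 5 without DMSO replicate 1 or FHT-1015 replicate 2 at 4 h. Of 20 receptor tyrosine kinases, a list without ERBB3, EPHA2, KIT and AXL, which stand in other lists above, 3 fell and 2 rose. MERTK, from 28.2, 29.1 and 31.3 CPM to 7.67, 5.93 and 9.17 CPM (log2 -1.96), and TYRO3 (log2 -1.72), which form the TAM family with AXL, fell with MET (log2 -1.14), and ERBB4 rose (log2 1.59). ERBB4 and no other member of this list was called higher without any 1 DMSO replicate or FHT-1015 replicate 2 or 3 at 24 h. Of 16 genes of antigen presentation 4 rose and 3 fell; the peptide transporter TAP1 (log2 1.36) and HLA-E (log2 0.80) rose, and the activator NLRC5 (log2 -2.15) fell. The number called higher was 2 without replicate 2 of DMSO or any FHT-1015 replicate at 24 h, and the number called lower was 1 without DMSO replicate 1 or FHT-1015 replicate 2 or 3 at 24 h. HLA genes share near-identical sequence, so their reads are less certain. Lysosome and proton pump genes were called lower in 7 of 35 and higher in 0 by edgeR (3 at an unadjusted p under 0.05, 1 in DESeq2 and 4 in limma-voom), with acid ceramidase, ASAH1 (log2 -1.30), among them, and in 2 to 4 without any 1 of the 6 samples at 24 h, while 1 was higher without DMSO replicate 1 or 2 or FHT-1015 replicate 2 at 4 h. In cholesterol synthesis 1 of 23 rose and 1 fell; the sterol reductase TM7SF2 rose from 8.81, 9.52 and 8.05 CPM to 57.8, 68.1 and 60.2 CPM (log2 2.82). The lower call, that of SQLE (log2 -0.66), ended without DMSO replicate 2 or 3 or FHT-1015 replicate 2 or 3 at 24 h, and 2 members were called lower without DMSO replicate 1 or 3 or FHT-1015 replicate 2 at 4 h. Of 31 nuclear respiratory chain genes 1 was called lower and 0 higher in edgeR (1 higher at an unadjusted p under 0.05, in DESeq2 and in limma-voom). The lower call ended without any 1 of the 6 samples at 24 h or FHT-1015 replicate 1 or 3 at 4 h, and 1 member was higher without DMSO replicate 2 at 4 h. Interferon-stimulated genes were called lower in 4 of 18 and higher in 0 by edgeR (3 at an unadjusted p under 0.05, 2 in DESeq2 and 8 in limma-voom), with low levels throughout the called members, and in 1 or 2 without replicate 2 or 3 of DMSO or any FHT-1015 replicate at 24 h. Without any 1 DMSO replicate or FHT-1015 replicate 2 at 4 h, 1 was called higher. Of 15 genes tied to uveal melanoma risk classes, MTUS1 (log2 1.59) and SATB1 (log2 0.89) were higher and ECM1 (log2 -1.20) lower, and the call of SATB1 ended without replicate 1 of DMSO at 24 h (log2 0.75). In calcium handling 2 of 16 rose and 2 fell, with the pump ATP2A3 higher (log2 2.32) and the channel ORAI1 lower (log2 -1.10). The number called higher was 1 without DMSO replicate 1 or 3 or any FHT-1015 replicate at 24 h, and the number called lower was 1 without DMSO replicate 2 or FHT-1015 replicate 3.

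At 4 h the same line had far fewer called genes: 25 higher (0.157%) and 83 lower (0.522%), 0.679% in either direction. Without replicate 2 of FHT-1015 at 4 h, the library that stood apart, 25 were higher and 112 lower at 4 h, and 1965 higher and 2065 lower at 24 h. With all 12 samples, the 25 included 13 that were higher and 6 lower at 24 h, and the 83 included 49 that were lower and 3 higher at 24 h. SOX10 was already lower at 4 h, by 3.04 on the log2 scale (adjusted p = 0.000179 in edgeR), and fell further by 24 h (difference -2.40 ± 0.34 SE, adjusted p = 0.00113 in edgeR). MITF was not called at 4 h (log2 -0.02, adjusted p = 0.996 in edgeR), and its difference between the times was -1.89 ± 0.32 SE (adjusted p = 0.00352 in edgeR). In the lists of melanin synthesis, DNA replication and ribosome biogenesis 0 genes were called at 4 h in edgeR in either direction. At an unadjusted p under 0.05, 1 melanin gene and 2 replication genes were lower and 2 ribosome biogenesis genes were higher at 4 h. DESeq2 called 1 of the melanin genes lower, and limma-voom called 0 genes of these lists. The test of the difference between the times called 9 of 18, 23 of 40 and 16 of 30 of their members lower at 24 h.

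Over all genes the effect differed between 24 h and 4 h for 1097 (6.89%), 477 higher (3.00%) and 620 lower (3.90%) at 24 h, of which 980 were called at 24 h and not at 4 h. Without the 4 h library that stood apart it differed for 1562, of which 1396 were called at 24 h and not at 4 h. The number was between 515 and 712 without replicate 1 or 3 of DMSO at 24 h, replicate 1 of FHT-1015 at 4 h or any replicate of FHT-1015 at 24 h. TRPM1 was not called at 4 h (log2 -0.15), and its difference between the times was -5.18 ± 0.35 SE (adjusted p = 6.48e-06 in edgeR). TSPAN10 differed by -4.50 ± 0.31 SE and MLPH by -3.26 ± 0.29 SE. BEST1 differed by -5.63 ± 0.42 SE, and by 0.32 from the sum of the stranded columns. Of the 22 BMP and TGF-beta genes, 5 were higher at 24 h than at 4 h by this test and 0 lower, with 0 lower also in DESeq2 and limma-voom. Of the 29 WNT genes, 7 were higher and 2 lower, against 3.00% and 3.90% of all genes.

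For 9 genes the calls at the 2 times had opposite signs and the difference was called. FHDC1, an actin-regulating formin, was at 29.5, 48.6 and 44.8 CPM in DMSO and at 4.32, 4.91 and 5.25 CPM in FHT-1015 at 24 h (log2 -3.08), while at 4 h it was higher than DMSO (log2 1.56, adjusted p = 0.0167 in edgeR). MYC was higher at 4 h (log2 0.96, adjusted p = 0.0367 in edgeR) and lower at 24 h, with a difference of -2.72 ± 0.27 SE. The other 7, chosen like MYC after their values were seen, were PER3, NR4A3, TNFRSF19 and TAF4B, higher at 4 h and lower at 24 h, and FAM43A, TPBG and SLC2A3, lower at 4 h and higher at 24 h.

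**Figure D4:**
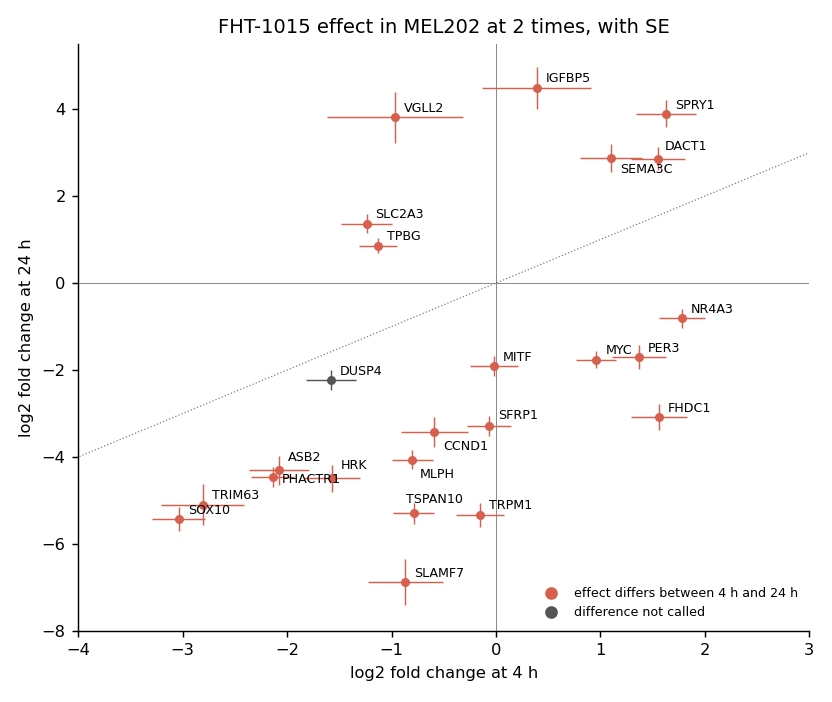
Log2 fold change of FHT-1015 against DMSO in MEL202 at 4 h (x) and at 24 h (y), with SE bars in both directions, for 24 genes; red points had a called difference between the times, the grey point did not, and the dotted line marks equal change. SOX10 lies at -3.04 and -5.43, TRPM1 and MITF lie near 0 on the x axis and far below 0 on the y axis, and FHDC1, MYC, PER3 and NR4A3 lie to the right of 0 and below it.

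The other lines responded more broadly in the number of called genes. At 24 h, 92-1 had 9500 of 15685 genes called (60.6%), 29.2% higher and 31.4% lower, and MP41 had 5617 of 15543 (36.1%), 17.4% higher and 18.7% lower; each line was fitted alone, with its own spread between replicates, so the counts do not rank the lines by the size of their response. Of the genes higher in MEL202 and tested in 92-1, 1057 of 1263 (83.7%) were also higher in 92-1, which is 24.8% of the genes higher there. Of those lower in MEL202, 1382 of 1507 (91.7%) were lower in 92-1, or 29.1% of its lower genes. The shares in MP41 were 63.3% of the higher and 75.6% of the lower MEL202 genes, or 31.5% and 42.3% of those of MP41. SOX10 fell by 4.69 on the log2 scale in 92-1 and by 4.74 in MP41, and the differences from MEL202 were not called (adjusted p = 0.121 and 0.208 in edgeR). MITF, TRPM1 and TSPAN10 were lower in all 3 lines, and their differences between lines were not called either.

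A test of the difference itself, in 1 fit of the 36 samples, found 984 of 18395 genes (5.35%) whose 24 h effect differed between MEL202 and 92-1, 556 higher (3.02%) and 428 lower (2.33%) in MEL202. Against MP41 it found 1018 (5.53%), 618 higher (3.36%) and 400 lower (2.17%). This fit used 1 estimate of the spread of each gene for all 3 lines. Its p-values therefore do not measure the spread within MEL202 alone. In this fit the 24 h effect in MEL202 was called for 5141 of 18395 genes, against 2984 of 15913 in the fit of MEL202 alone. The number against MP41 was 677 when the MEL202 FHT-1015 replicate 2 was left out, 657 without the MP41 DMSO replicate 2 and 2792 without the MP41 DMSO replicate 3, all at 24 h. MLPH stood out among pigment genes: it fell by 4.06 in MEL202, 2.81 in MP41 and 0.57 in 92-1 on the log2 scale, and MEL202 differed from 92-1 by -3.54 ± 0.27 SE (adjusted p = 1.19e-10 in edgeR) and from MP41 by -1.19 (adjusted p = 0.00449 in edgeR). Of the 18 melanin genes, the effect was higher in MEL202 than in 92-1 for 4 and not called as different for 14 in edgeR. DESeq2 called it higher for 6 and lower for 0, and limma-voom higher for 8 and lower for 3. Against MP41 the effect was lower in MEL202 for 3 and higher for 0 in edgeR (3 at an unadjusted p under 0.05 in edgeR, 0 in DESeq2 and 3 in limma-voom). TYR fell by 4.36 in 92-1 (adjusted p of the difference 1.69e-06 in edgeR) and PMEL by 3.55 (adjusted p of the difference 2.94e-07 in edgeR).

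S-phase genes fell in all 3 lines, 40 of 40 in 92-1 and 39 of 40 in MP41, against 31.4% and 18.7% of all genes, but 15 of the 40 fell less in MEL202 than in 92-1 by the test of the difference, and 0 fell more (0 at an unadjusted p under 0.05 in edgeR and in DESeq2, 1 in limma-voom). The same test against MP41 called 1 of 40. Mitosis genes were called lower in 31 of 34 in 92-1, where 31.4% of all genes were lower, in 16 of 34 in MP41, where 18.7% were, and in 1 of 35 in MEL202, where 10.1% were. By the test of the difference, 6 of 35 were higher in MEL202 than in 92-1 (3.02% of all genes were) and 5 of 35 higher than in MP41 (3.36% of all genes were). Cholesterol synthesis was lower for 15 of 23 genes in 92-1, against 31.4% of all genes, and 7 of 23 differed from MEL202, against 5.35%. In MP41 7 of 23 were higher and 5 lower, against 17.4% and 18.7% of all genes. By the test of the difference from MP41, 2 of 23 were higher and 3 lower in MEL202, against 3.36% and 2.17% of all genes. Ribosome biogenesis genes were lower in 25 of 30 in 92-1 and 17 of 30 in MP41, against the same shares of 31.4% and 18.7%, and the difference from MEL202 was called for 2 of 30 in MP41. Against 92-1 it was called for 0 of 30 in edgeR (1 at an unadjusted p under 0.05, 0 in DESeq2 and 10 in limma-voom). CCND1 fell by 1.86 in 92-1 and 2.27 in MP41 on the log2 scale, less than in MEL202 (adjusted p = 0.000638 and 0.0227 in edgeR). SFRP1 fell by 1.04 and 2.22, and HRK by 2.88 and 1.72, again less than in MEL202 (adjusted p from 2.25e-08 to 0.00399 over these 4 differences in edgeR).

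Other genes differed from 92-1 in direction or in size. ATOH8, a bHLH factor, was at 87.6, 108 and 115 CPM in DMSO and at 215, 248 and 248 CPM in FHT-1015 in MEL202 (log2 1.19), and fell in 92-1 (log2 -2.92) and MP41 (log2 -1.06); the difference from 92-1 was 4.07 ± 0.29 SE (adjusted p = 5.41e-11 in edgeR). ATP2A3 rose in MEL202 and fell in 92-1 (log2 -1.74, difference 4.01 ± 0.31 SE). BAMBI, a decoy receptor for TGF-beta ligands, was called higher in MEL202 (log2 0.84, a call that ended in 5 of the 12 fits that left out 1 sample) and fell in 92-1 (log2 -2.82, difference 3.62 ± 0.27 SE). PFKFB2, a regulator of glycolysis, fell in all 3 lines but by 6.90 in 92-1 against 1.61 in MEL202 (difference 5.23 ± 0.38 SE). SMARCA2 was higher with FHT-1015 in 92-1 (log2 0.73) and differed there from MEL202 by -0.86 ± 0.21 SE (adjusted p = 0.0107 in edgeR, and 0.183 without the filter on low counts).

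Against MP41, TMCC3 rose in MEL202 (log2 1.96) and fell in MP41 (log2 -2.53, difference 4.55 ± 0.38 SE, adjusted p = 2.75e-09 in edgeR). SCRN1 was at 156, 268 and 219 CPM in DMSO and at 253, 239 and 241 CPM in FHT-1015 in MEL202 (log2 0.19) and fell in MP41, with a difference of 4.24 ± 0.31 SE. DUSP2 fell in MP41 (log2 -3.45) and not in the MEL202 test (log2 -0.12, difference 3.39 ± 0.29 SE). CYP20A1 rose in MP41 (log2 3.42, difference -3.29 ± 0.25 SE) and RDH10, a retinol dehydrogenase, rose more there (log2 3.86, difference -3.05 ± 0.27 SE) than in MEL202 (log2 0.75). IGFBP5, among the genes with the largest rise in MEL202, was not called in MP41 (log2 -0.31, adjusted p of the difference 3.58e-06 in edgeR). Differences and the effects of single lines come from separate fits, so they do not subtract exactly.

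**Figure D5:**
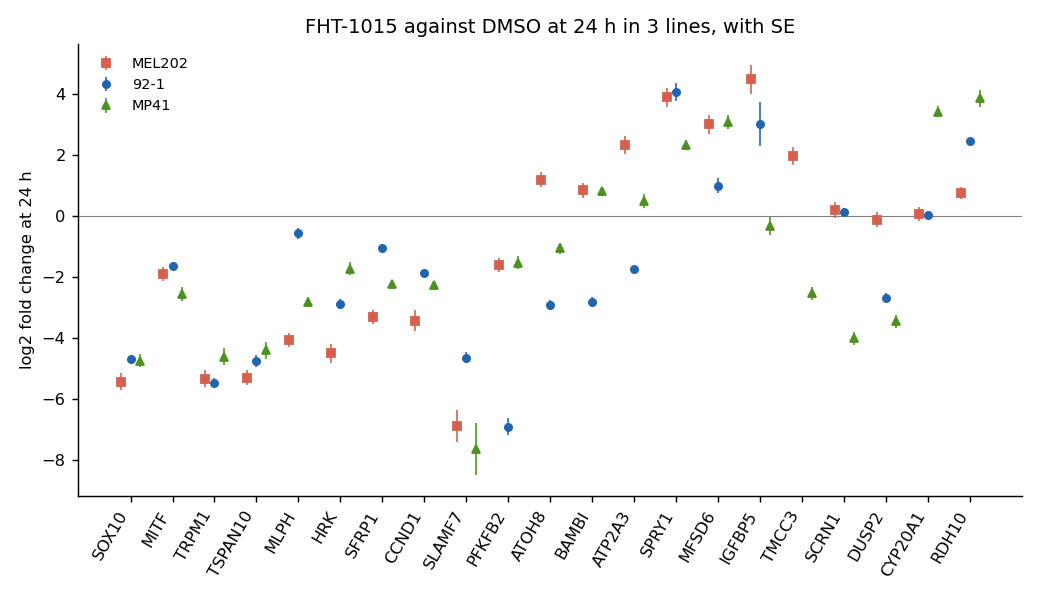
Log2 fold change of FHT-1015 against DMSO at 24 h (y) for 21 genes (x) in MEL202 (red squares), 92-1 (blue circles) and MP41 (green triangles), each from the fit of that line with SE bars; a line without a point did not have enough reads to test the gene. SOX10, MITF, TRPM1 and TSPAN10 are low in all 3 lines, MLPH is lowest in MEL202 at -4.06 and highest in 92-1 at -0.57, and ATOH8, BAMBI and ATP2A3 are above 0 in MEL202 and below 0 in 92-1.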

How the data were processed

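RNA from frozen cell pellets was poly-T selected and made into libraries with the NEBNext Ultra RNA kit, per the labels' protocols. The authors deposited, for each sample, unnormalised counts of reads per gene in the layout that STAR writes; the aligner's version is not given in the sources used here, and the submitters' processing notes list hg38 and limma. The unstranded count column was used, and the first stranded column held close to the same number of reads as the second, so overlapping and antisense genes cannot be told apart. Gene names and positions come from GENCODE 29, in which 58552 of 58870 gene identifiers were found; 92 spike-in rows, with 0 reads, were left out.

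Genes were kept by filterByExpr, scaled by TMM and tested with edgeR 4.0.16 (R 4.3.3) in a quasi-likelihood fit of 12 MEL202 samples in 4 groups, without a replicate block. Calls are at a Benjamini-Hochberg adjusted p under 0.05, and each SE was computed from the fitted change and its F statistic. Differences between times came from the same fit and those between lines from a fit of 36 samples. The fit of 12 MEL202 samples was run on simulated counts with known changes, for the 24 h comparison only. The other comparisons, fits and tools were not tested in this way. Alternatives used DESeq2 1.42.0, limma 3.58.1, other scaling, other sample sets and leaving out each sample.

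The comparison and the gene lists were chosen with earlier results of these data known. Genes named by rule were SMARCA4, SMARCA2, SOX10 and MITF; the 15 higher and 15 lower called protein-coding genes with the largest change, separate replicates and a mean of 5 CPM or more; up to 4 called members per list whose mean reached 1 CPM; and the 5 genes with the smallest p for each difference. Further list members were named for their role after their values were seen.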

Additional observations from a re-analysis of the deposited data

Results flagged for a closer look

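The effect of FHT-1015 in MEL202 differed between 24 h and 4 h for 1097 genes by the interaction term of edgeR's quasi-likelihood fit. Among them, on the log2 scale and as 24 h minus 4 h, SOX10 differed by -2.40, MITF by -1.89, BEST1 by -5.63, TRPM1 by -5.18, TSPAN10 by -4.50, MLPH by -3.26 and FHDC1 by -4.64. All 7 were lower at 24 h relative to 4 h, and the value of BEST1 depends on the count column.

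The 24 h effect differed between MEL202 and 92-1 for 984 genes and between MEL202 and MP41 for 1018, by the same kind of term in the fit of 36 samples. As MEL202 minus 92-1, SMARCA2 differed by -0.86, MLPH by -3.54, ATP2A3 by 4.01, ATOH8 by 4.07, PFKFB2 by 5.23 and BAMBI by 3.62. As MEL202 minus MP41, SCRN1 differed by 4.24, CYP20A1 by -3.29, TMCC3 by 4.55, DUSP2 by 3.39 and RDH10 by -3.05.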

How the results depend on the processing

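At 24 h, 2211 genes were higher and 2596 lower with GC and length offsets, 4484 and 4340 by limma-voom with quality weights, 3123 and 3133 from the 6 samples alone, and 2381 and 2760 from all 36 samples. The difference between times was called for 2781 genes with GC and length offsets, 1873 by DESeq2 and 2551 by limma-voom. The difference from 92-1 was called for 1887 and 4380 genes with GC and length offsets and limma-voom, and that from MP41 for 1746 and 6354. Leaving out 1 sample gave 788 to 1965 higher, 971 to 2065 lower, 515 to 1562 for the times, 695 to 949 for 92-1 and 657 to 2792 for MP41. The causes were not tested. With the replicate block, 1362 genes were higher and 1525 lower at 24 h, 976 differed between times and 1071 from 92-1; deviations of same-numbered samples correlated from -0.322 to 0.508, so the numbers were not taken to pair them.

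Of 144 named genes called at 24 h, 115 were called in every fit leaving out 1 sample and 135 under every other alternative. From the sum of the stranded columns BEST1 was at 0.15 at 24 h and 0.32 for the times. The other changes of sign were of genes that were not called or near 0. Without DMSO replicate 2, SMARCA2 at 24 h was 0 and CYP20A1 -0.01, and CYP20A1 was also -0.01 without FHT-1015 replicate 1; leaving out each sample gave -0.22 to 0 and -0.01 to 0.21. SMARCA4 between times was 0.27 by limma-voom, and -0.33 to 0.36 leaving out 1 sample (0.17, 0.06 and 0.36 without DMSO 4 h replicate 3, DMSO 24 h replicate 2 and FHT-1015 4 h replicate 2). Against 92-1 it was 0.04 without the low-count filter, 0.05 by limma-voom, and -0.10 to 0.11 leaving out 1 sample (0.03, 0.02, 0.11 and 0.02 without 92-1 DMSO or FHT-1015 replicate 1, MEL202 DMSO replicate 2 and MEL202 FHT-1015 replicate 3). SMARCA2 against MP41 was -0.20 to 0.04 leaving out 1 sample (0.03 without MEL202 DMSO replicate 2 and 0.04 without MP41 FHT-1015 replicate 1).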
